A study of Mus musculus with 3 samples.

Results

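Classical monocytes were picked from single-cell RNA libraries of white blood cells sorted from mouse liver tumours, and 1346 of 36386 kept cells met the rule. The rule worked on raw counts of RNA molecules (UMIs) per cell. Kept cells showed 200 genes or more and no more than 10% mitochondrial UMIs. A classical monocyte had at least 5 UMIs of Lyz2 and at least 3 UMIs of Vcan, F13a1, Fn1 and Ly6c2 together, of which at least 1 came from Vcan, F13a1 or Fn1. It had at most 2 UMIs of the complement genes C1qa, C1qb and C1qc, at most 1 UMI of Cd209a and Mgl2, and under 1% of its UMIs from S100a8 and S100a9. It had no UMI of Treml4, Ace, Adgre4, Siglech, Cd3e or Cd79a. These limits are meant to keep out macrophages, dendritic cells, neutrophils, patrolling monocytes, and T and B cells. RNA of some other cell types was still present, as given below. The rule found 553 cells in DU101, 406 in DU102 and 387 in control.

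The groups were tumours of MYC-ON mice treated with DU101, tumours of MYC-ON mice treated with DU102, and control tumours of MYC-ON mice. All mice were C57BL6 animals aged 18 weeks, and each group had 1 library of live cells sorted for CD45, a protein of white blood cells. The labels do not say what DU101 and DU102 are, how much was given or for how long, which promoter drives MYC, or how many animals of which sex went into a library. The control is labelled CONTROL while its data are named DMSO, a solvent, and what the control mice received is not stated. With 1 library a group there is no replicate check, and no test between groups was made. Values in brackets are 95% intervals, exact Poisson for ratios and exact Clopper-Pearson for shares, and they cover counting error only.

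Classical monocytes leave the bone marrow under the control of the chemokine receptor Ccr2 and enter inflamed tissue and tumours. They carry Ly6C on the mouse cell surface and can become macrophages or monocyte-derived dendritic cells there. They arise from dividing precursors in the marrow, and the earlier of these share the enzymes of primary granules (Mpo, Elane, Prtn3, Ctsg) with neutrophil precursors. Interferons switch on a set of antiviral genes in monocytes, many of which have a GAAA repeat in the promoter, while MHC class II genes let the cell present antigen to helper T cells.

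Promoters are shown for 4 interferon-induced genes that were higher in DU101 than in control in the 4 cell selections listed in the last paragraph. The sequences are RefSeq's, build GRCm38.p6, from 250 bases before to 50 bases after the start of the gene, 5′ to 3′ on the strand of the gene, with matches to the GAAA repeat in capitals. The motif searched was GAAA, any 2 bases and GAAA again, or TTTC, any 2 bases and TTTC for the other strand, and overlapping matches were counted. Isg15 at chr4:156200769-156201068 on the minus strand held 3 overlapping matches, Ifit1 at chr19:34640639-34640938 on the plus strand held 2 and Ifit3 at chr19:34583279-34583578 on the plus strand held 2. Bst2 at chr8:71537423-71537722 on the minus strand held 2 overlapping matches.
Isg15: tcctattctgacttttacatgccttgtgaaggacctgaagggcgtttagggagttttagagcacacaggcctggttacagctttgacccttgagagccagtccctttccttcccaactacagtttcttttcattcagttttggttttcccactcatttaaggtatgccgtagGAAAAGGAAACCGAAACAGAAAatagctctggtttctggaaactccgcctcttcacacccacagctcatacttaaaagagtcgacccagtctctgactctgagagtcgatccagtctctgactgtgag
Ifit1: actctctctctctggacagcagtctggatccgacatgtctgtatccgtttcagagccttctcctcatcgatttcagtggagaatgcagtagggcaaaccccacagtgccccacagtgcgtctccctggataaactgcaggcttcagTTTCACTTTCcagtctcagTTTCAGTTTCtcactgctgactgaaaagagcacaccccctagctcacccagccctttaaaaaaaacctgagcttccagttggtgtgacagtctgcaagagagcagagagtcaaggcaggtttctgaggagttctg
Ifit3: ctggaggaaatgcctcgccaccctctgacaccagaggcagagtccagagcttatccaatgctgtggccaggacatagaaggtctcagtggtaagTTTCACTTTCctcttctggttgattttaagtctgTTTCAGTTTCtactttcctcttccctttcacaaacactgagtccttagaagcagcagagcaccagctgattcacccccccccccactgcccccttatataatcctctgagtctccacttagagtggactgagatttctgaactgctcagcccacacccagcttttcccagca
Bst2: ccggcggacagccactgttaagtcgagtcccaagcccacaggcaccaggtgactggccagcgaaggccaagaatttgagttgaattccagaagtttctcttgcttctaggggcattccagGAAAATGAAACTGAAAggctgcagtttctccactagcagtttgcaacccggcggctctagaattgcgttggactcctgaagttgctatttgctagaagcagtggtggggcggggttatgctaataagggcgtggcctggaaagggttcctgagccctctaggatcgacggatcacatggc

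Of the 45 interferon-induced genes on the list used here, 37 had a promoter in the table, and 19 of them (51.4%) held the motif. Over all 27025 genes of the table the share was 3.99%, and over 8653 matched genes with at least 30 UMIs in the classical monocytes it was 4.02%. Ifit2 and Cmpk2, from the same selection, held no match in this window, and Usp18 is named only. A match is a run of letters, and no binding was measured.

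The libraries held 15686 barcodes in DU101, 13650 in DU102 and 12639 in control, and 106604935, 96817875 and 91013198 UMIs in that order. Between 37 and 57 barcodes were shared by a pair of libraries, and none was shared among classical monocytes. The classical monocytes held 5788598 UMIs in DU101, 5848957 in DU102 and 4563306 in control, with medians of 7374, 9245.5 and 9186 UMIs per cell. A doublet caller marked 8, 5 and 8 of them. Xist, which coats the silenced X chromosome in females, was found in 0 of 553 classical monocytes of DU101 (up to 0.665%), in 1 of DU102 and in 174 (45.0%) of control. Y-linked RNA (Uty, Kdm5d, Ddx3y or Eif2s3y) was found in 57.0, 68.5 and 41.1%. The control library therefore held cells of both sexes: 156 of its classical monocytes had Xist alone, called Xist-positive here, 141 had Y-linked RNA alone, called Y-positive, and 18 had both. Sex and animal cannot be told apart. Many comparisons with control were repeated on Y-positive cells. Others, such as the balance with macrophages and the levels of many single genes, are given over all cells only.

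RNA of other cells was also present in unequal amounts. Red cell genes summed to 15.5 CPM (UMIs per 1000000 UMIs of the selected cells) in DU101, 375 in DU102 and 3749 in control, and hepatocyte genes to 1775, 3059 and 1882 CPM. Most of it sat in a few cells: the 3 richest cells held 100, 92.1 and 99.3% of the UMIs of the haemoglobin gene Hbb-bs, and 94.0, 57.2 and 96.5% of those of albumin, Alb. Among 9 T cell markers besides Cd3e the sum stayed at 44.5 to 55.3 CPM in the 3 libraries. NK cell markers summed to 113 CPM in DU101, 306 in DU102 and 175 in control. Of 7 measured, 6 were called lower in DU101 over DU102, where 4.76% of all genes were. In all 4 cell selections listed in the last paragraph 5 of them stayed called, as did 38.3% of all genes called lower. Neutrophil precursor markers, Mpo among them, summed to 3528 CPM in DU101, 6213 in DU102 and 2321 in control. Of 10 measured, 7 were called higher and 1 lower in DU101 over control, and 9 and 1 in DU102. Over all genes 8.65% were called higher and 6.28% lower in DU101, and 12.6 and 5.44% in DU102. In all 4 cell selections Camp, Ngp and Ltf were higher and Lcn2 lower in both, also without primary granule RNA. B and plasma cell markers summed to 946, 218 and 133 CPM. Igkc, an antibody chain that T cells of DU101 carried too, was at 740 CPM in DU101, 92.3 in DU102 and 66.0 in control. The nuclear RNA Gm42418, which overlaps ribosomal RNA, was at 11595, 22809 and 42906 CPM, and Lars2 at 420, 705 and 1135 CPM. The part of these RNAs in the results was not tested.

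The genes of the rule are described only, since they chose the cells. The median classical monocyte held 114 UMIs of Lyz2, the lysozyme gene, in DU101, 153 in DU102 and 129 in control. The medians were 9, 12.5 and 9 UMIs for Ly6c2, the Ly6C antigen, 3, 6 and 5 for F13a1, a coagulation factor subunit, 3, 6 and 8 for Fn1, fibronectin, and 1, 2 and 2 for Vcan, a proteoglycan. At the edge of the rule, 20 cells of DU101, 16 of DU102 and 17 of control sat just inside the marker sum of 3, and 24, 16 and 11 sat just outside it. For the complement limit, 48, 18 and 33 cells sat just inside and 13, 5 and 15 just outside. The ban on Treml4, Ace and Adgre4 alone kept out 312, 362 and 357 cells, more than any other limit.

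Ccr2, which the rule did not use, fitted the label. It was found in 89.0% of classical monocytes of DU101, 91.6% of DU102 and 91.5% of control, at 538, 536 and 507 CPM. Patrolling monocytes (cells with Treml4, Ace or Adgre4) held 254, 388 and 288 CPM, tumour macrophages rich in C1q held 259, 294 and 234 CPM, and T cells 111, 126 and 67.7 CPM. Csf1r, the receptor for the monocyte growth factor, stood at 159, 168 and 224 CPM in the classical monocytes, and Plac8, a marker of Ly6C-high cells, at 2836, 3021 and 2558 CPM. Mpo went against a mature label, at 466, 1094 and 305 CPM, and is taken up below with the dividing cells. The map of levels by cell type sets these genes side by side.

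**Figure D1:**
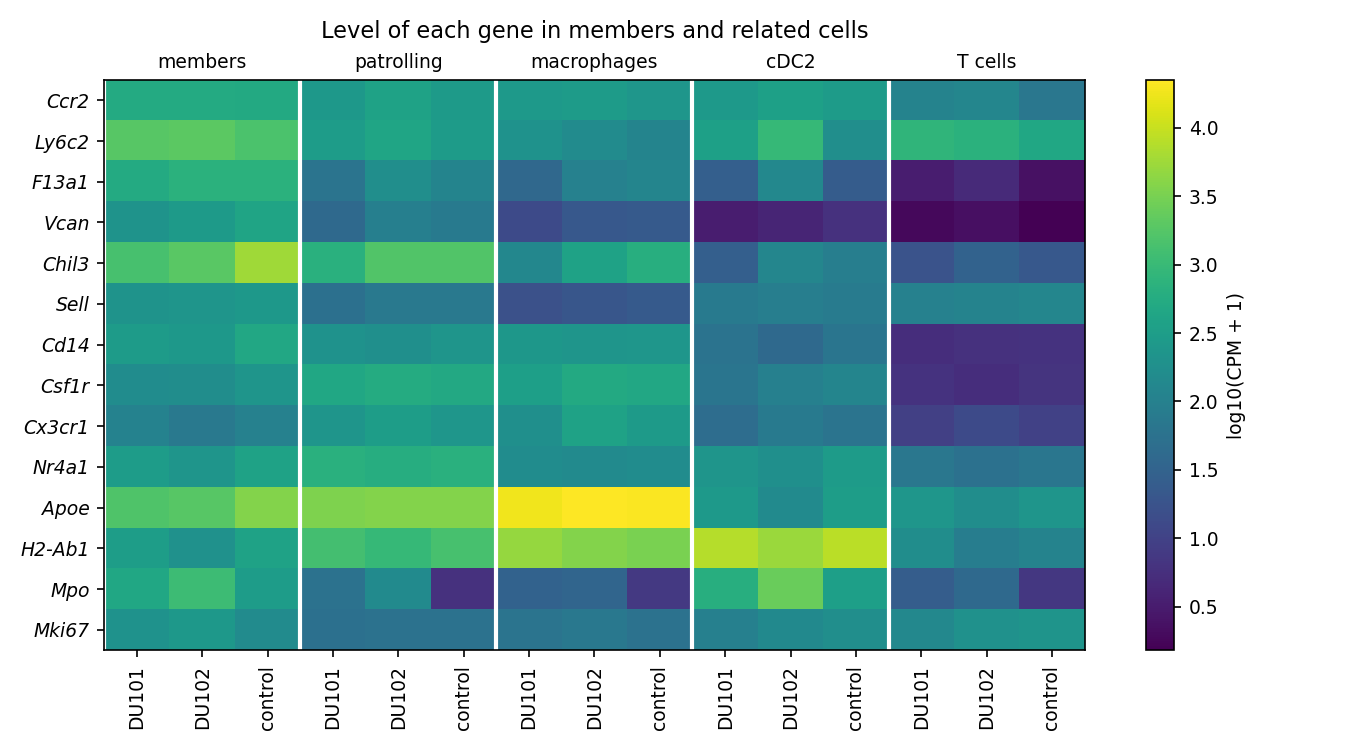
Colour shows the level of each gene, as log10 of CPM + 1, in classical monocytes (members) and 4 other cell types of each library. Ccr2 is highest in classical monocytes in each library, at 538 CPM in DU101, 536 in DU102 and 507 in control, and Apoe and H2-Ab1 are higher in macrophages.

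The share of classical monocytes hardly differed between the libraries. They made up 3.88% (3.57 to 4.21) of kept cells in DU101, 3.47% (3.14 to 3.81) in DU102 and 3.71% (3.36 to 4.10) in control. The share in DU101 was 1.04 (0.915 to 1.19) times that in control, the share in DU102 was 0.933 (0.810 to 1.08) times that in control, and the intervals of both ratios included 1. After thinning every cell to 3000 UMIs the shares were 5.15% in DU101, 5.07% in DU102 and 5.44% in control. Among Y-positive cells, however, they were 4.66% in DU101, 4.49% in DU102 and 7.58% in control, which gave ratios to control of 0.615 for DU101 and 0.593 for DU102. Set against macrophages the libraries stood apart, and classical monocytes were 42.6% (39.9 to 45.3) of classical monocytes plus macrophages in DU101, 51.9% (48.3 to 55.4) in DU102 and 32.8% (30.1 to 35.6) in control. The C1q limit of the rule and the C1q cutoff for macrophages set this balance in part.

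A part of the classical monocytes carried RNA of primary granules, and this part was larger in both treated libraries. Cells with at least 0.1% of UMIs from Mpo, Elane, Prtn3 and Ctsg numbered 100 of 553 (18.1%, 15.0 to 21.5) in DU101, 93 of 406 (22.9%, 18.9 to 27.3) in DU102 and 24 of 387 (6.20%, 4.01 to 9.09) in control. The split was chosen after the values were seen. In T cells the same measure gave 2.48, 2.88 and 0.0856%, in patrolling monocytes 3.90, 5.89 and 0.142%, in tumour macrophages 6.03, 6.37 and 0.379%, and in cDC2 cells, a kind of dendritic cell, 4.64, 15.8 and 1.10%. The interval of the cDC2 share in DU102 (9.63 to 23.8) overlapped that of the classical monocytes. The other shares were higher in the treated libraries too, and the part of granule RNA carried over between cells was not tested. The median depth was 4434, 5297 and 6474 UMIs in those T cells. Within control, 0 of 156 Xist-positive cells (up to 2.34%) and 22 of 141 Y-positive cells (15.6%, 10.0 to 22.7) belonged to this part. Among Y-positive cells the treated shares were 22.5% (18.0 to 27.6) in DU101 and 25.9% (20.9 to 31.5) in DU102, and the interval of DU101 overlapped that of control.

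**Figure D2:**
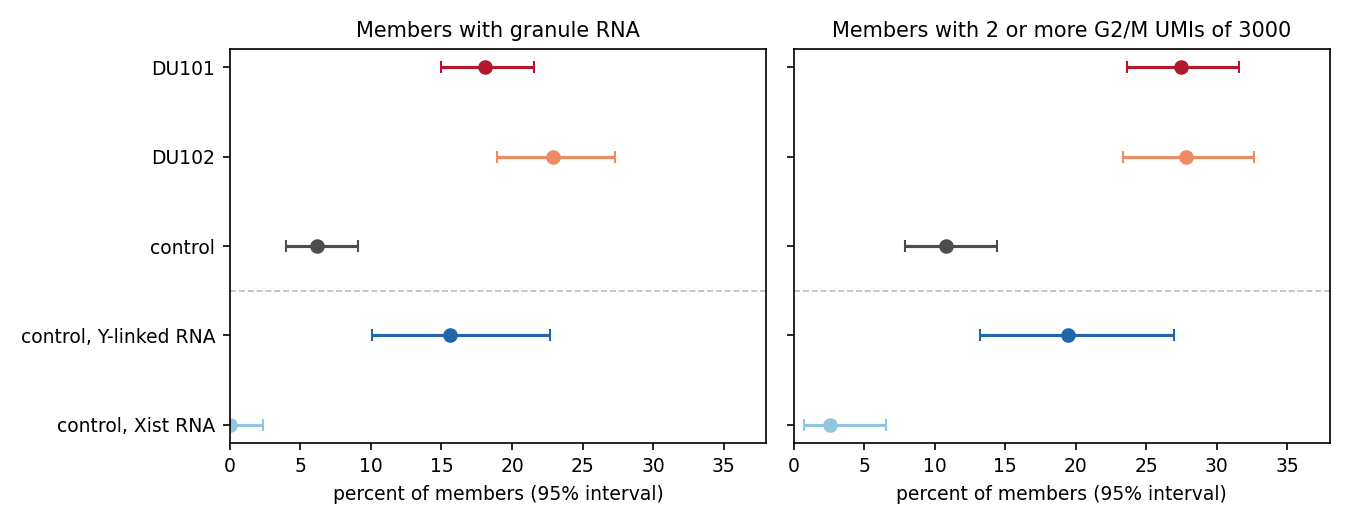
Percent of classical monocytes (members) with granule RNA, left, and with at least 2 UMIs of 13 G2/M genes among 3000 UMIs, right; points are shares and bars 95% Clopper-Pearson intervals. DU101 and DU102 lie above control in both panels, at 18.1 and 22.9% against 6.20% on the left, and within control the Xist-positive cells lie below the Y-positive cells.

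The cells with granule RNA were deep and mostly dividing. Their median depth was 16842 UMIs in DU101, 24026 in DU102 and 32144 in control, against 6822, 8458 and 8982 UMIs in the other classical monocytes, and the doublet caller marked 2, 0 and 0 of them. At 3000 UMIs a cell, 72.3% in DU101, 82.4% in DU102 and 70.8% in control had at least 2 UMIs of 13 G2/M genes, against 17.3, 12.2 and 6.76% of the others. All 30 cell cycle genes on the list were called higher in granule cells than in the others in each library, where 12.4% of genes tested were called higher in DU101, 16.4% in DU102 and 19.8% in control. A gene was called when it was at least 1.5-fold higher or lower, its interval lay on that side of 1, and it had at least 30 UMIs over both sets. Ly6c2 was higher in granule cells, at 2715 CPM in DU101, 2887 in DU102 and 2658 in control against 1417, 1307 and 1192 CPM in the others, as was Irf8, a factor of monocyte fate, at 365, 386 and 387 CPM against 143, 134 and 169 CPM. Ms4a3, a gene of granulocyte and monocyte precursors, was at 278, 468 and 498 CPM against 7.90, 8.27 and 2.43 CPM.

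Genes of the mature monocyte were lower in the granule cells. Ccr2 was at 295 CPM in DU101, 264 in DU102 and 203 in control, against 653, 734 and 578 CPM in the others, and Csf1r was at 69.7, 76.3 and 47.8 CPM against 202, 235 and 264 CPM. F13a1 was not called, at 630, 723 and 798 CPM against 501, 673 and 677 CPM. Of the interferon-induced genes, 42 of 43 measured were called lower in DU101, 39 of 41 in DU102 and 36 of 41 in control, against a background of 19.6, 22.6 and 20.6% of genes called lower. Of the list of classical identity genes, 20, 19 and 21 of 25 measured were lower. Because granule cells held 32.2% of the UMIs of classical monocytes in DU101, 42.1% in DU102 and 18.8% in control, their number moved the pooled levels of many genes. Part of the results that follow is given with and without them. The counts of classical identity, inflammatory and glucocorticoid-responsive genes called, and many single genes, are given over all cells only.

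Dividing cells were more frequent in the treated libraries also among all classical monocytes. At least 2 UMIs of the G2/M genes of 3000 were found in 27.5% in DU101, 27.8% in DU102 and 10.8% in control, with 2.61% of Xist-positive and 19.4% of Y-positive control cells. In Y-positive cells the treated shares were 32.9% (27.6 to 38.5) in DU101 and 33.2% (27.6 to 39.2) in DU102, against 19.4% (13.2 to 27.0) in control. Without granule RNA besides, they were 21.1% (16.0 to 27.0) in DU101 and 14.6% (10.0 to 20.4) in DU102 against 10.3% (5.41 to 17.2) in control, and the intervals overlapped. In T cells the shares were 16.0, 17.6 and 17.7%. Thinning left out 43 shallow cells of DU101, 25 of DU102 and 8 of control. Of the 30 cell cycle genes, 15 were called higher and 0 lower in DU101 over control, where 8.65% of all 10172 genes tested were called higher and 6.28% lower. In DU102 over control 28 were higher and 0 lower, where 12.6% of 10266 genes were called higher and 5.44% lower. Stmn1, a tubulin regulator of dividing cells, was at 479 CPM in DU101, 330 in DU102 and 177 in control, which is 2.71-fold (2.50 to 2.93) and 1.87-fold (1.72 to 2.03) over control. Hells, a chromatin remodeller of S phase, was at 73.2, 85.7 and 27.2 CPM. Without granule cells 23 of 30 genes were still called higher in DU101 and 19 in DU102, against 11.2 and 11.5% of all genes higher, and 5.35 and 3.54% lower, but Stmn1 in DU102 was then at 126 against 83.9 CPM. In all 4 cell selections listed in the last paragraph, 3 of the 15 stayed called in DU101 and 4 of the 28 in DU102. Of all genes called higher, 31.6% stayed called in DU101 and 29.2% in DU102.

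Genes of the Myc network and of ribosome building leaned the same way. Of 22 measured, 7 were higher in DU101 over control and 8 in DU102, with none lower, against 8.65 and 12.6% of all genes called higher, and the list medians were both 0.34 on the log2 scale against 0.056 and 0.10 for all genes. Nop58, a nucleolar protein, was at 124 CPM in DU101, 128 in DU102 and 70.3 in control. In all 4 cell selections, 1 gene of the list, Nop58, stayed called in DU101 and 3 did in DU102, where 31.6 and 29.2% of all genes called higher stayed. Hspd1, a mitochondrial chaperone on another list, was at 432, 470 and 247 CPM. Of that list, immediate-early and heat shock genes, 4 of 29 were higher and 4 lower in DU101, and 3 and 11 in DU102. Over all genes 6.28 and 5.44% were called lower. Myc itself was low, at 18.3, 12.1 and 15.1 CPM, and was not called in either treated library over control.

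**Figure D3:**
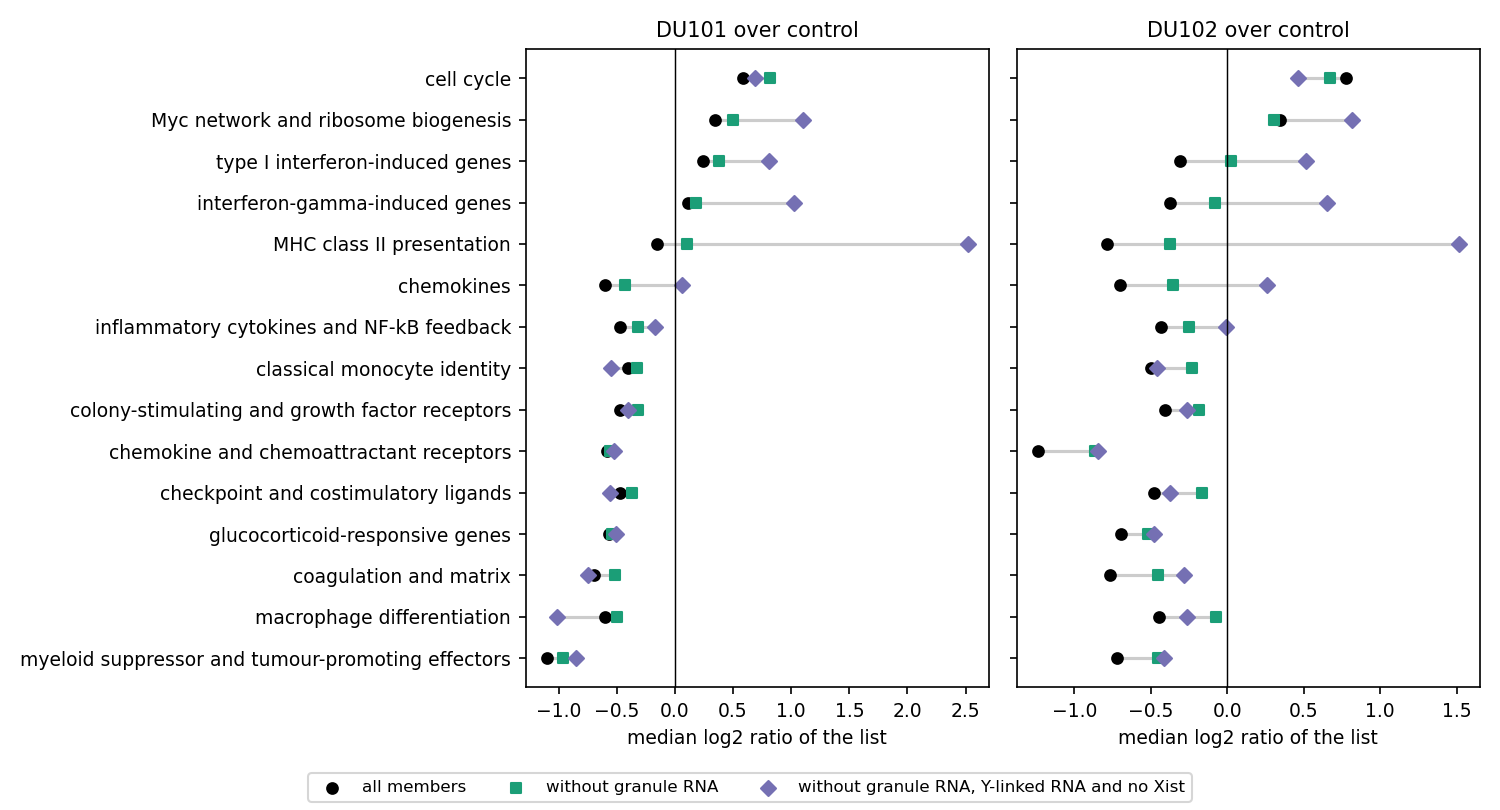
Median log2 ratio of 15 gene lists in DU101 over control, left, and DU102 over control, right, for all classical monocytes (members), for those without granule RNA, and for the Y-positive cells among these. The suppressor, macrophage, receptor and identity lists lie below 0 in every selection, while the MHC class II list lies at -0.15 in DU101 and -0.79 in DU102 over all cells and at 2.52 and 1.51 in the last selection.

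Receptors that guide monocytes to complement and bacterial peptides were lower in both treated libraries. Of 12 chemokine and chemoattractant receptors measured in DU101 over control, 6 were lower and 1 higher, and of 11 measured in DU102, 7 were lower and 0 higher. Over all genes 6.28% were called lower and 8.65% higher in DU101, and 5.44 and 12.6% in DU102. C5ar1, the receptor for complement C5a, was at 20.6 CPM in DU101, 18.8 in DU102 and 51.7 in control, 2.52-fold (2.01 to 3.16) and 2.75-fold (2.18 to 3.48) lower. C3ar1, for complement C3a, was at 9.50, 16.2 and 48.9 CPM. Fpr2, for formylated peptides, was at 20.6, 31.8 and 74.1 CPM, 3.60-fold (2.92 to 4.48) and 2.33-fold (1.94 to 2.80) lower, and Fpr1 at 2.94, 5.13 and 18.6 CPM. Ccr2 stood apart, with ratios to control of 1.06 (1.00 to 1.12) in both. Without granule cells, where 5.35 and 3.54% of all genes were called lower, 5 of 12 were lower in DU101 and 7 of 11 in DU102. Among the Y-positive cells of these, 5 of 11 and 6 of 10 were lower, where 7.09% of genes in DU101 and 4.62% in DU102 were called lower.

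Effectors of suppressive and tumour-promoting myeloid cells were also lower. In DU101 over control 14 of 21 measured were lower and none higher, with a median of -1.10, and in DU102 10 of 21 were lower and none higher, with a median of -0.72 on the log2 scale, against 6.28 and 5.44% of all genes called lower. Thbs1, the matrix protein thrombospondin, was at 294 CPM in DU101, 336 in DU102 and 834 in control, 2.83-fold (2.67 to 3.0) and 2.48-fold (2.35 to 2.62) lower. Ptgs2, which makes prostaglandin, was at 73.8, 103 and 199 CPM, and the neutrophil collagenase Mmp8 at 74.6, 97.1 and 161 CPM. Arg1, the arginine-degrading enzyme, was at 27.3, 31.3 and 72.1 CPM, but the 3 richest cells held 62.0, 58.5 and 69.9% of its UMIs. Spp1, osteopontin, was at 54.6 CPM in DU101 against 172 in DU102 and 225 in control, and only DU101 was called against control, with 60.1, 51.7 and 43.9% of its UMIs in the 3 richest cells. Among Y-positive cells without granule RNA 11 of 18 were lower in DU101, and 7 were lower and 2 higher in DU102, against 7.09 and 4.62% of all genes called lower.

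Of the macrophage genes, 14 of 24 were lower and 1 higher in DU101 over control, and 9 were lower and 2 higher in DU102, where 6.28 and 5.44% of all genes were called lower. Apoe, which carries lipid, was at 1609 CPM in DU101, 1819.8 in DU102 and 3738 in control, and the factor Maf at 41.8, 46.8 and 112 CPM. Without granule cells 10 of 24 macrophage genes were lower in DU101 and 6 of 23 in DU102, against 5.35 and 3.54% of all genes. Lgmn, a lysosomal protease on another list, was 2.92-fold (2.61 to 3.27) lower in DU101 and 2.27-fold (2.05 to 2.52) lower in DU102. Of that list, lysosome and antigen processing, 4 of 21 were lower in DU101 and 3 of 21 in DU102 over all cells, with 0 higher. Of 25 classical identity genes, 9 were lower in each treated library over control and none was higher, counted over all cells, granule cells included. Chil3, a chitinase-like protein, was at 1355 CPM in DU101, 1917 in DU102 and 5639 in control, 4.16-fold (4.06 to 4.27) and 2.94-fold (2.88 to 3.01) lower. Clec4d, a lectin receptor, was at 39.7, 31.8 and 85.7 CPM, and Itgam, the integrin CD11b, at 146, 150 and 260 CPM.

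Cytokine, chemokine and steroid-responsive genes were lower in part. In DU101 over control 7 of 24 inflammatory genes were lower and 2 higher, and in DU102 9 of 23 were lower and none higher. Over all genes 8.65% were called higher and 6.28% lower in DU101, and 12.6% higher and 5.44% lower in DU102. Il1b, the cytokine interleukin 1 beta, was at 308 CPM in DU101, 293 in DU102 and 538 in control, and Socs3, an inhibitor of cytokine signalling, at 72.2, 60.0 and 157 CPM. Of the glucocorticoid-responsive genes 7 of 15 were lower in DU101 and 8 in DU102, with 1 higher in each, as with Fkbp5, a chaperone of the steroid receptor, at 64.4, 42.7 and 121 CPM. Of the chemokines 8 of 16 were lower in DU101 and none higher, and in DU102 11 of 17 were lower and 3 higher. Among Y-positive cells without granule RNA the chemokine medians were 0.06 in DU101 and 0.26 in DU102, against -0.60 and -0.70 over all cells, so the direction of that list reversed. The other lists of this paragraph kept medians below 0, as near 0 as -0.01 for the inflammatory genes in DU102.

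The genes furthest above and below control were ranked by the interval end nearest to 1, leaving out haemoglobin, immunoglobulin and sex-linked genes and the other classes named in the processing. Of the genes so ranked Hes1, a target of Notch signals, was the highest in DU101, at 71.5 CPM in DU101, 57.4 in DU102 and 14.9 in control, 4.80-fold (3.71 to 6.30) and 3.86-fold (2.96 to 5.08) over control. At 3000 UMIs it was found in 10.0, 8.14 and 2.37% of classical monocytes and in 2.35, 1.53 and 1.19% of T cells. Patrolling monocytes held more, at 583, 482 and 297 CPM, and the Hes1 level without granule cells was 104, 90.7 and 18.1 CPM. Ms4a8a, a membrane protein of myeloid cells, ranked lowest in DU101, at 6.39, 13.3 and 55.0 CPM, 8.61-fold (6.08 to 12.5) and 4.12-fold (3.19 to 5.39) lower. Without granule cells Ms4a8a was at 8.66 CPM in DU101 and 21.3 in DU102, against 100 in Y-positive and 22.1 in Xist-positive control cells. The intervals of DU102 (16.6 to 26.8) and of Xist-positive control cells (15.3 to 30.8) overlapped. Emp1 was at 13.6, 22.2 and 69.0 CPM. St3gal5, which makes ganglioside, ranked lowest in DU102, at 16.8 CPM in DU101, 8.55 in DU102 and 50.2 in control, and Cd33, a sialic acid receptor, was at 23.3, 20.9 and 71.4 CPM. Cirbp, a cold-induced RNA-binding protein, was at 27.3, 22.6 and 78.7 CPM.

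Several genes ranked this high rested on a few cells, and their part is printed with them. The 3 richest cells of DU102 held 82.8% of the UMIs of Clu, 63.3% of Spink1, 51.6% of Cdkn1c, 81.7% of Peg3, 68.3% of Krt18, 67.6% of Pf4 and 47.0% of Bex1, genes of hepatocytes, bile duct, tumour or platelets as well as of other cells. In DU101 the 3 richest cells held 74.4% of Spink1, 67.8% of Bex1, 91.2% of Fabp4, 48.5% of Fkbp11 and 64.2% of Hibch. These genes are not described further.

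Cells of the control library differed with their sex-linked RNA. In cells without granule RNA, Xist-positive control cells over Y-positive control cells had 28 of 40 interferon-induced genes higher and none lower, where 13% of 7061 genes were called higher and 6.12% lower. All 7 MHC class II genes measured were higher, with a median of 3.44 on the log2 scale, as were 8 of 14 chemokines and 11 of 19 inflammatory genes. H2-Ab1, an MHC class II chain, was at 917 CPM in Xist-positive and 70.2 in Y-positive cells, and Chil3 at 1212 and 11384 CPM. Cell cycle genes ran the other way, with 18 of 27 lower and 2 higher. All 18 hepatocyte genes measured were higher in the Xist-positive cells, with a median of 5.09, and 4 of 5 red cell genes were lower, and their part was not tested.

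**Figure D4:**
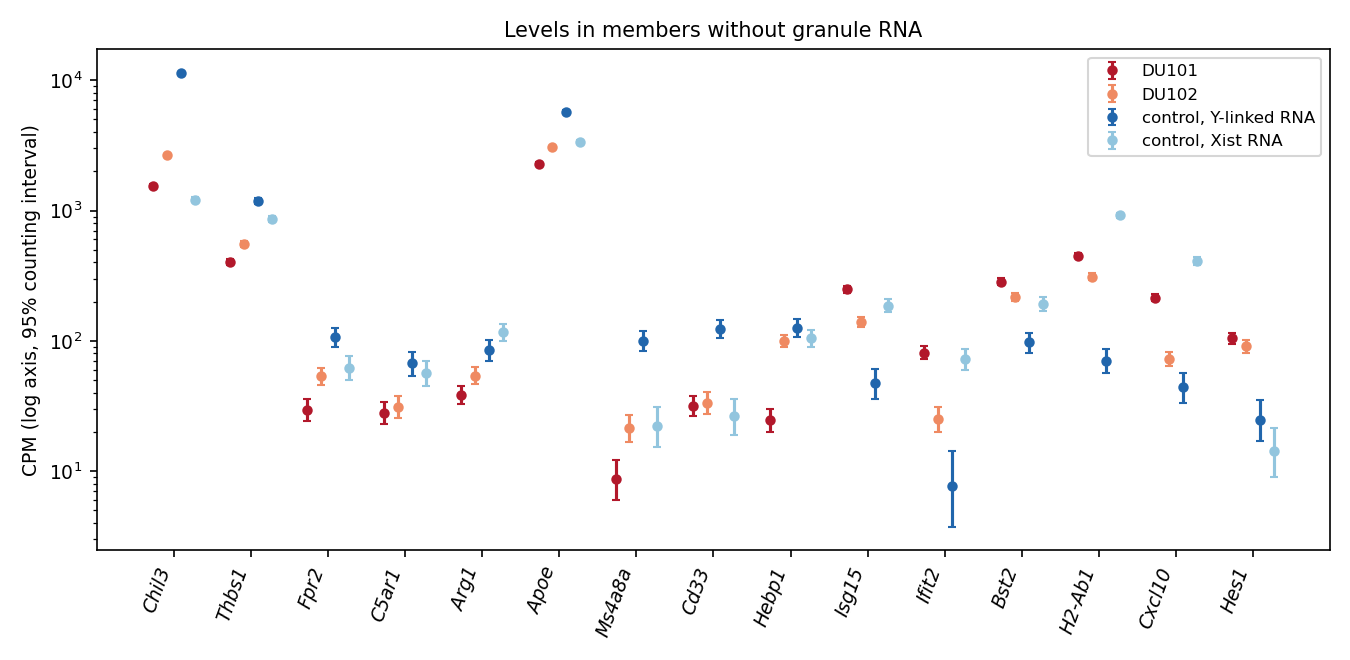
CPM on a log axis of 15 genes in classical monocytes (members) without granule RNA of DU101, of DU102, and of control, Y-positive and Xist-positive; bars are exact 95% Poisson intervals. Thbs1, Fpr2, C5ar1 and Apoe are lower and Hes1 is higher in DU101 and DU102 than in either part of control, while Chil3 is far higher in the Y-positive control cells, at 11384 CPM, than in the rest.

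Some differences from control held against both parts of that library. In cells without granule RNA, Thbs1 was at 404 CPM in DU101 and 554 in DU102, against 1181 in Y-positive and 866 in Xist-positive control cells. Fpr2 was at 29.6 and 53.5 CPM against 106 and 62.3, C5ar1 at 28.0 and 31.0 against 67.1 and 56.4, and Apoe at 2295 and 3058 against 5752 and 3366. Hes1 was at 104 and 90.7 CPM against 24.7 and 14.3. Others lay between the parts of control or matched 1 of them. Chil3 was at 1552 and 2653 CPM against 11384 and 1212, and Cd33 at 31.6 and 33.4 against 124 and 26.6. The counting intervals of Fpr2 in DU102 and in Xist-positive control cells overlapped, and those of the other genes of the first kind did not overlap between a treated library and either part of control.

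A part of the interferon-induced genes was higher in DU101 than in control, while most did not pass the call, and the direction in DU102 depended on the cells compared. In DU101 over control 9 of 44 were higher and 1 lower, against 8.65% of all genes higher and 6.28% lower, with a list median of 0.24. Without granule cells, where 11.2% of all genes were called higher, 12 of 44 were higher and none lower, with a median of 0.38. Among the Y-positive cells of these 22 of 41 were higher and 1 lower, where 21.2% of genes were called higher. Isg15, a ubiquitin-like protein, was at 177 CPM in DU101, 88.9 in DU102 and 91.6 in control, 1.94-fold (1.73 to 2.18) over control in DU101 and 1.03-fold (0.904 to 1.17) lower in DU102. Ifit2, which binds foreign RNA, was at 56.5, 15.0 and 30.7 CPM, but the 3 richest cells held 24.2, 34.1 and 65.7% of its UMIs. Bst2, which tethers virus particles, was at 246, 179 and 133 CPM. In DU102 over control 14 of 42 were lower and 1 higher over all cells, with a median of -0.31, where 5.44% of all genes were called lower and 12.6% higher. Without granule cells, where 3.54% of all genes were called lower and 11.5% higher, 2 were lower and 3 higher, with a median of 0.02. Among the Y-positive cells without granule RNA 18 of 41 were higher and none lower, where 19.7% of genes were called higher. Against Xist-positive control cells, 3 of 44 were higher and 1 lower in DU101 without granule cells, with a median of -0.01, and in DU102 10 of 41 were lower and none higher, where 8.23% of genes were called higher and 5.79% lower in DU101, and 9.06% higher and 4.15% lower in DU102. Isg15 was then at 249 CPM in DU101 and 139 in DU102, against 186 CPM in those control cells. With the stricter rule, which asks for a marker sum of 5 and no C1q, the DU101 median over control was 0.08, Isg15 was 0.48 on the log2 scale, and Ifit1 and Ifit2 turned to -0.11 and -0.10.

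The treated libraries were both almost free of Xist, so that DU101 could be set against DU102 without the mixed control. Of 10476 genes tested 2.65% were called higher in DU101 and 4.76% lower. Interferon-induced genes were higher in DU101, 19 of 44 over all cells with none lower and a median of 0.53, and 11 of 44 without granule cells, where 2.91% of genes were called higher. Isg15 was 2.00-fold (1.79 to 2.22) and Ifit2 3.75-fold (2.96 to 4.81) higher, and Irf7, which amplifies the interferon response, was at 85.5 CPM in DU101 and 46.7 in DU102. The same direction was seen in T cells, where Isg15 was at 225 CPM in DU101 and 118 in DU102. In thinned cells Isg15 was found in 28.4% of classical monocytes of DU101 and 18.6% of DU102, against 24.8 and 17.1% of T cells, so that shares of cells with Isg15 cannot be told apart from RNA shared between cell types. Without granule cells the median cell held 20 UMIs of the interferon list of 3000 in DU101 and 19 in DU102, and the 90th percentile was at 47 and 34.5 UMIs.

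**Figure D5:**
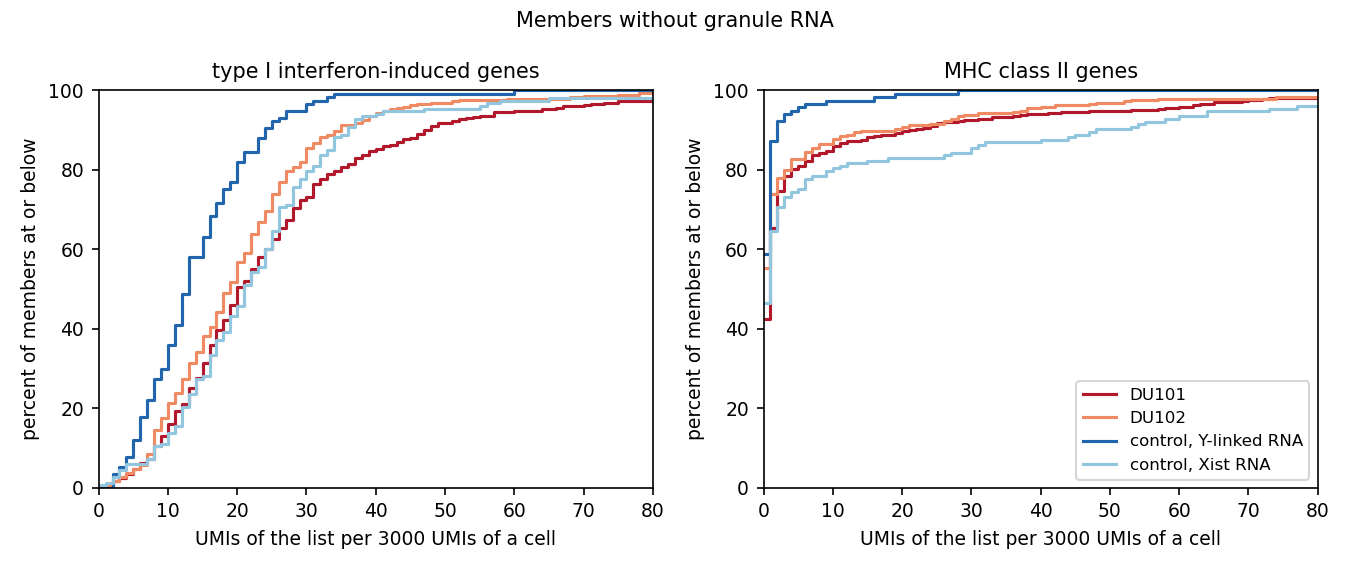
Cumulative percent of classical monocytes (members) without granule RNA against the UMIs of the interferon list, left, and of 4 MHC class II genes, right, among 3000 UMIs of each cell. DU101 and DU102 run close together up to their medians of 20 and 19 interferon UMIs and part above them, and the Y-positive control cells, with a median of 13, lie to the left of the Xist-positive ones, with a median of 21.

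MHC class II genes were higher in DU101 than in DU102. Of 9 measured 4 were higher and 1 lower, with a median of 0.46, where 2.65% of all genes were called higher and 4.76% lower. H2-Eb1 was at 186 CPM in DU101 and 45.5 in DU102, 4.09-fold (3.58 to 4.70) higher, H2-Aa at 312 and 164 CPM, and Cd74, the invariant chain, at 760 and 506 CPM. Without granule cells only H2-Aa and H2-Eb1 of 8 were called, where 2.91% of all genes were called higher and 5.81% lower. The share of cells with at least 5 UMIs of H2-Aa, H2-Ab1, H2-Eb1 and Cd74 among 3000 did not separate the libraries, at 19.7% (16.0 to 23.9) in DU101 and 17.2% (13.1 to 22.02) in DU102 without granule cells, against 3.90 and 2.23% of T cells. In control it was 5.13% (1.90 to 10.8) of Y-positive and 25.5% (18.8 to 33.2) of Xist-positive cells. In Y-positive cells without granule RNA H2-Ab1 was at 468 CPM in DU101 and 319 in DU102 against 70.2 in control.

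Chemokines and macrophage genes split the treated libraries both ways. Ccl4, a chemokine that attracts monocytes and T cells, was at 653 CPM in DU101 and 278 in DU102, 2.35-fold (2.22 to 2.49) higher, Ccl3 at 361 and 210 CPM, and Cxcl10, an interferon-induced ligand of Cxcr3, at 167 and 92.5 CPM. The stress-response factor Atf3 was at 736 and 384 CPM. Spp1, from the list of suppressive effectors, was lower in DU101, at 54.6 against 172 CPM. Gpnmb, a macrophage gene, was also lower, at 11.7 against 21.4 CPM, though it turned to 0.18 on the log2 scale under the stricter rule. Mrc1, the mannose receptor, was at 9.33 CPM in DU101 and 16.4 in DU102, and turned to 0.045 with thinning. Without granule cells 7 of 24 macrophage genes were lower in DU101 and 2 higher, where 5.81% of genes were called lower and 2.91% higher. Cell cycle genes scarcely differed, with 0 higher and 1 lower of 30.

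Hebp1, a haem-binding protein, was nearly missing from the classical monocytes of DU101. It was at 18.3 CPM in DU101, 76.1 in DU102 and 101.2 in control, 5.53-fold (4.47 to 6.89) below control and 4.15-fold (3.35 to 5.18) below DU102. In thinned cells Hebp1 was found in 1.96% (0.944 to 3.58) of classical monocytes of DU101, 21.0% (17.0 to 25.4) of DU102 and 29.6% (25.001 to 34.4) of control, against 1.18, 0.976 and 1.28% of T cells. The intervals of the shares in DU101 overlapped between classical monocytes and T cells, and that share is read as background. Of the 106 Hebp1 UMIs in DU101, however, 1 cell held 20 and the 3 richest cells 46.2%, so the pooled level and its ratios rest in part on those cells. Without granule cells Hebp1 was at 24.7 CPM in DU101 and 99.8 in DU102, against 125 in Y-positive and 104 in Xist-positive control cells. Patrolling monocytes had the same order, at 17.6, 81.4 and 99.6 CPM, while tumour macrophages of DU101 kept 98.8 CPM against 167 in DU102 and 185 in control.

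Calls were counted again in 4 selections: Y-positive cells, no granule RNA, both together, and every cell weighted alike. Of 880 genes higher and 639 lower in DU101 over control, 278 and 163 were also called in all 4. Of 1296 and 558 in DU102 over control, 378 and 98 were. Of 278 genes higher and 499 lower in DU101 over DU102, 89 and 191 were. Thinning to 3000 UMIs, which is not among the 4, kept fewer calls than any single one of them. Of the calls over control it kept 215 higher and 202 lower in DU101, and 186 and 124 in DU102. In DU101 over DU102 it kept 63 higher and 54 lower. With TMM scaling, whose factors were 1.0035 for DU101, 1.04 for DU102 and 0.958 for control, the calls split into 713 higher and 831 lower in DU101 over control, 898 and 862 in DU102 over control, and 338 and 408 in DU101 over DU102. In the Y-positive cells 13% of genes were called higher and 5.64% lower in DU101 over control, and 14.6 and 4.3% in DU102 over control. Without granule RNA besides, the shares were 3.79 and 6.2% in DU101 over DU102. The genes of the lists that were called in all 4 for DU101 over control included Isg15, Ifit1, Ifit2, Ifit3, Usp18, Cmpk2 and Bst2 as higher, and Chil3, Thbs1, C5ar1, C3ar1, Fpr1, Fpr2, Arg1, Apoe and Maf as lower. For DU102 over control Chil3, Thbs1, Maf, Ccr1, C5ar1, C3ar1, Fpr1 and Fpr2 were among those lower in all 4. For DU101 over DU102, Isg15, Ifit2, Irf7, H2-Eb1, Ccl3 and Ccl4 were higher and Hebp1, Spp1, Mrc1 and Gpnmb lower. Outside these 4, Mrc1 turned to 0.045 on the log2 scale with thinning, and Gpnmb to 0.18 under the stricter rule. Under that rule Ifit1 and Ifit2 turned to -0.11 and -0.10 in DU101 over control. The 3 richest cells of DU101 held 62.0% of the Arg1 UMIs. None of the 4 selections used Xist-positive control cells alone. In those, Chil3 without granule RNA was at 1212 CPM, below the 1552 of DU101 and the 2653 of DU102.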

How the data were processed

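Raw counts of UMIs for 32285 features in 3 libraries were deposited by the authors. Cell Ranger 6.0.0 is named in the headers of the files, and Cell Ranger 2.1.1 and mm10 in the submitters' processing notes; libraries were 10x 3' v3, per the labels' protocols. The authors' deposited tables of log2 fold changes by cluster were not used. Cells were selected by the rule given above, UMIs were summed per library and scaled to CPM, and ratios were given with exact 95% Poisson intervals. Against 0 counts a floor of 3 counts was used. Library depth ranged from 91013198 to 106604935 UMIs. Gene lists count measured members, those with at least 30 UMIs over both sets. No test between groups was possible with 1 library each. The members and lists were chosen with earlier results of these data known. Named genes were the 8 highest and 8 lowest in each treated library over control and the 6 and 6 in DU101 over DU102, ranked by the interval end nearest to 1, at 50 CPM or more in the higher library, leaving out genes of the rule, mitochondrial, ribosomal protein, haemoglobin, immunoglobulin, T cell receptor segment, hepatocyte and sex-linked genes, numbered gene models, and genes below their level in T cells, the extremes of each list, and a fixed set. Others named were chosen after their values were seen. Some genes are not reported here. Doublets were called with Scrublet in scanpy 1.11.5 and left in. Alternatives were other filters, a stricter rule, thinning to 3000 UMIs, TMM scaling in edgeR 4.0.16 under R 4.3.3, other thresholds and other cell selections. The work was done in Python 3.11.15 with pandas 2.3.3, matplotlib 3.10.9, scipy 1.17.1 and numpy 2.4.6.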

Additional observations from a re-analysis of the deposited data

How the results depend on the processing

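Of gene values under an alternative, 2238 kept their size, 960 moved and 32 reversed, and of list medians 1282, 55 and 13 did. A reversal was counted only where the main value was called, so a change of sign in other values is not in that count. Some alternatives changed few cells or none: at least 500 genes kept the same 553, 406 and 387 classical monocytes. These counts therefore do not measure how stable the directions were. The limits are 1 library a group, a control of both sexes, and pooled levels that a few deep cells can set. No paired analysis was possible because the groups share only the replicate number 1.

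The counts of called genes moved with the settings. With thinning to 3000 UMIs, 441 genes were higher and 380 lower in DU101 over control, 378 and 236 in DU102 over control, and 182 and 255 in DU101 over DU102. At a threshold of 2-fold the counts were 320 and 254, 507 and 212, and 122 and 192. At 100 UMIs or more, 409 genes were lower in DU101 over control, 852 higher in DU102 over control, and 146 higher and 262 lower in DU101 over DU102. With every cell weighted alike, where calls rested on size without an interval, 565 were higher and 1168 lower in DU101 over DU102. TMM scaling gave 862 genes lower in DU102 over control, and the stricter rule 329 lower in DU101 over DU102. Without granule RNA, 338 were lower in DU102 over control, and with Y-positive cells besides, 1728 were higher in DU101 over control.

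The ratio of shares also moved. DU101 over DU102 was 0.957 under the stricter rule. In Y-positive cells DU101 over control was 0.615 and DU102 over control 0.593. Without granule RNA the ratios were 0.912 and 0.767, and in Y-positive cells without it 0.564 and 0.521.

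Values that reversed from a called main value follow on the log2 scale, and the cause was not tested. Under the stricter rule Fabp4 was -0.82, Ifit1 -0.11 and Ifit2 -0.10 in DU101 over control, and Fabp4 -1.26, Gpnmb 0.18 and Spink1 0.25 in DU101 over DU102. With thinning, the DU102 over control medians were 0.050 for interferon-induced genes and 0.27 for MHC class II, with Cd74 at 0.32, H2-Aa at 0.25 and H2-Ab1 at 0.11, and in DU101 over DU102 Fabp4 was -0.23 and Mrc1 0.045. In Y-positive cells the DU101 over control values were 0.091 for chemokines, 0.45 for Basp1, -0.15 for Mpo and 4.66 for Peg3. There the DU102 over control medians were 0.32 for interferon-induced, 0.41 for interferon-gamma-induced, 1.36 for MHC class II and 0.45 for chemokine genes, with Basp1 at 0.53, Cd74 at 1.94, H2-Aa at 2.07, H2-Ab1 at 1.91, H2-Eb1 at 1.74 and Ifit2 at 0.94. Without granule RNA the interferon median in DU102 over control was 0.023, and Elane in DU101 over DU102 was 0.090. In Y-positive cells without granule RNA the DU101 over control values were 0.060 for chemokines, 0.41 for Basp1 and 4.64 for Peg3. There the DU102 over control medians were 0.52, 0.65, 1.51 and 0.26 for the same 4 lists, with Basp1 at 0.76, Cd74 at 2.104, H2-Aa at 2.38, H2-Ab1 at 2.18, H2-Eb1 at 1.98 and Ifit2 at 1.65, and DU101 over DU102 gave Dmkn 0.24 and Elane 0.15. Without doublets and RNA of other types Hibch in DU101 over DU102 was -0.017. The selections by granule RNA, and by RNA of other types, were chosen after the values were seen.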
